A study of Mus musculus with 12 samples.

Results

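The 9 transporter genes described here carry organic anions and cations across the membranes of hepatocytes, and they were read from a table of 54232 genes counted in 12 mouse livers. They are Slc22a7 and Slc22a30 of the SLC22 family, Slco1a1, Slco1a4, Slco1b2 and Slco2b1 of the SLCO family, Slc47a1, and Abcc2 and Abcc3 of the ABCC family. They were named by symbol as sinusoidal and canalicular transporters and were chosen by the difference in read counts between LKO and WT livers, which was already known, so that difference is given for them as a description without a p-value. All 9 were among the 17509 genes that were kept for testing because 6 or more livers each held over 2 reads. The WT group comprised 6 livers of Marchf6 fl/fl mice without the Cre transgene (AlbuminCre-). The LKO group comprised 6 livers of Marchf6 fl/fl littermates with the transgene (AlbuminCre+), in which Cre under the albumin promoter recombines the floxed exon in hepatocytes. All mice were C57Bl/6J males of 10 weeks on chow, and all had been fasted for 4 h. Marchf6 encodes a ubiquitin ligase of the endoplasmic reticulum, and the comparison asks what its loss from hepatocytes does to the liver transcriptome.

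Hepatocytes clear endogenous compounds and drugs from portal blood in a vectorial way. Uptake carriers of the SLC22 and SLCO families sit on the sinusoidal membrane, intracellular enzymes conjugate many of the substrates, and efflux carriers release the products. MRP2 (Abcc2) and MATE1 (Slc47a1) work on the canalicular membrane towards bile, and MRP3 (Abcc3) works on the basolateral membrane back towards blood. Expression of several of these genes in rodent liver differs between the sexes, with Slco1a1 predominating in males and Slco1a4 in females.

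Libraries held 14860414 to 22111926 reads assigned to genes. Of the 17509 genes, 75 (0.428%) passed edgeR's quasi-likelihood test at an adjusted p under 0.05, 27 lower and 48 higher in LKO livers. Marchf6 itself had 226 to 247 CPM (read counts scaled to a common library size) in WT livers, with a median of 244, and 204 to 249 CPM in LKO livers, with a median of 227. The ranges overlapped (log2 fold change -0.09, SE 0.06), and since a read count over the whole gene includes all its exons it does not check the excision of a single exon. Library numbers were lower throughout in WT than in LKO samples, and library order and genotype cannot be told apart. The samples were whole liver, in which fewer cells of a type and less RNA per cell cannot be told apart either. The defining hepatocyte transcript, that of albumin, averaged 76079 CPM in WT livers and 66977 CPM in LKO livers.

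Slc22a7 was the gene of the list with the wide difference. It encodes OAT2, an organic anion transporter of the sinusoidal membrane that also carries cyclic nucleotides. The gene lies at chr17:46432183-46438457 on the minus strand of GRCm38, and its coding sequence is 1623 bases long. Reads were counted per gene and not per transcript. The first 90 bases of the longest complete annotated coding sequence are shown to identify the gene, with the start codon in capitals.
Slc22a7: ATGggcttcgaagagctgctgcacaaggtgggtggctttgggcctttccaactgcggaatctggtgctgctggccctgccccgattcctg
None of the 50-base words in the annotated transcripts of Slc22a7 occurred in those of 17 related transporter genes, so reads of that length belonged to this gene among them.

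In WT livers Slc22a7 ranged from 37.3 to 69.4 CPM with a median of 63.3 CPM. In LKO livers it ranged from 8.26 to 21.3 CPM with a median of 15.3 CPM. The highest LKO liver was below the lowest WT liver, and the groups did not overlap. WT livers 1, 2, 4 and 5 lay close together at 63.6, 63, 63.5 and 69.4 CPM, while WT liver 6 had 46.0 CPM and WT liver 3 had 37.3 CPM. Among the LKO livers, numbers 1, 3 and 4 had 20.1, 21.3 and 17.9 CPM, and numbers 6, 2 and 5 had 12.8, 9.58 and 8.26 CPM. The group means were 57.1 ± 12.5 CPM in WT and 15 ± 5.55 CPM in LKO livers (SD, n = 6 each). The LKO mean was 26.2% of the WT mean, with a log2 fold change of -1.93 (SE 0.23). The counts behind these values were 143 to 1325 reads per liver. Its fold change was the 8th lowest of the 17509 genes tested. It was the 1 gene of the 9 among the 0.428% of tested genes that edgeR called, which describes the contrast by which it was chosen and is no evidence of its own.

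**Figure D1:**
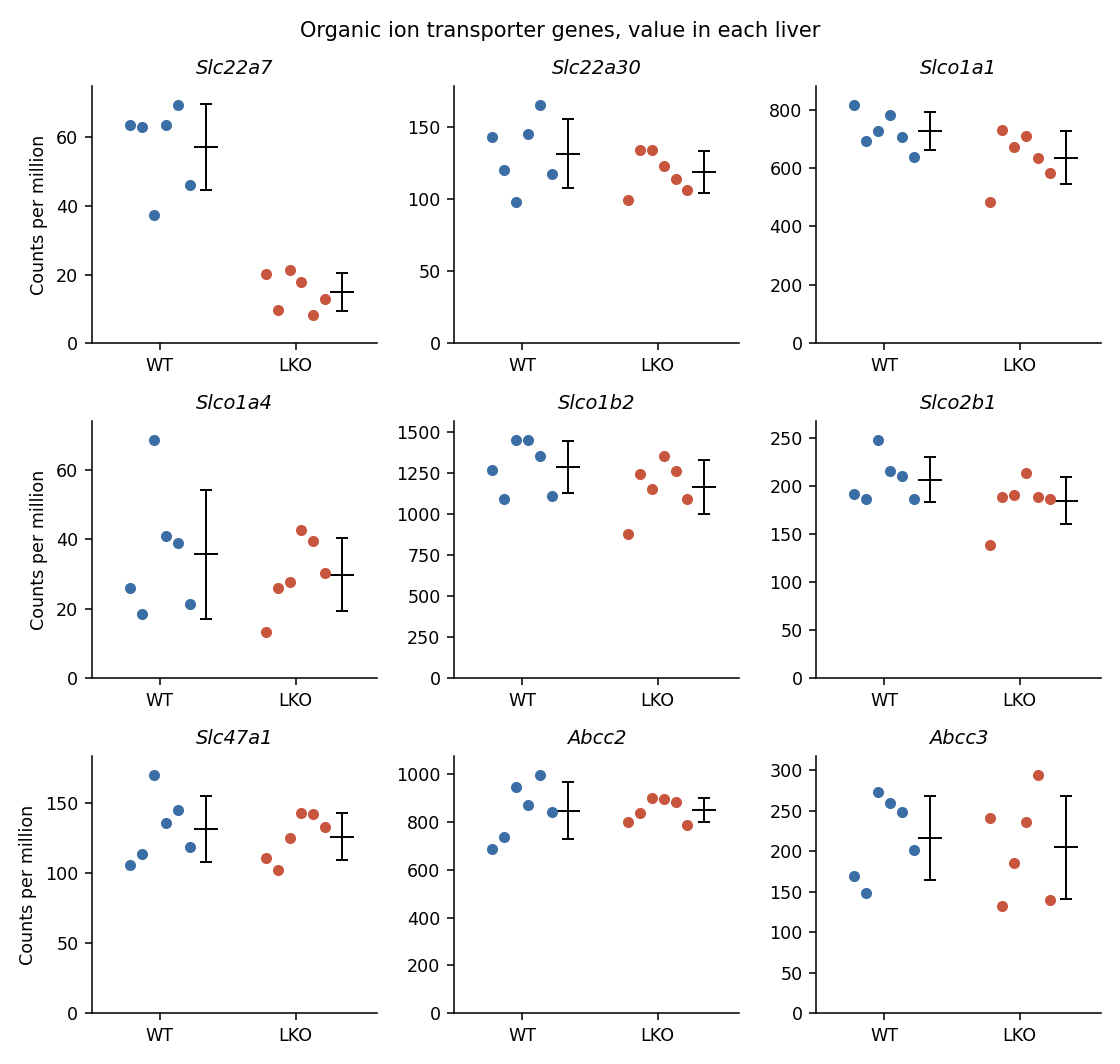
CPM of the 9 transporter genes in each liver, with WT in blue and LKO in red. Points stand in library order within a group, the black marks give mean ± SD (n = 6), and all axes start at 0. In the Slc22a7 panel the 6 LKO livers sit between 8.26 and 21.3 CPM, all below the WT livers; in the other 8 panels the groups overlap.

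The other 8 genes differed little between the genotypes. Their log2 fold changes ran from -0.26 for Slco1a4 to 0.01 for Abcc2, with a median of -0.15, and the median of the 17509 genes was 0.00016. Over the whole list 8 of 9 genes had a fold change below 0, where 50% of all tested genes did, and 1 of 9 had all LKO livers below all WT livers, where 0.554% of all tested genes did (1.3% did not overlap in either direction). These counts come from the contrast by which the list was drawn up and nothing is read from them. In all 8 of these genes the groups overlapped.

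**Figure D2:**
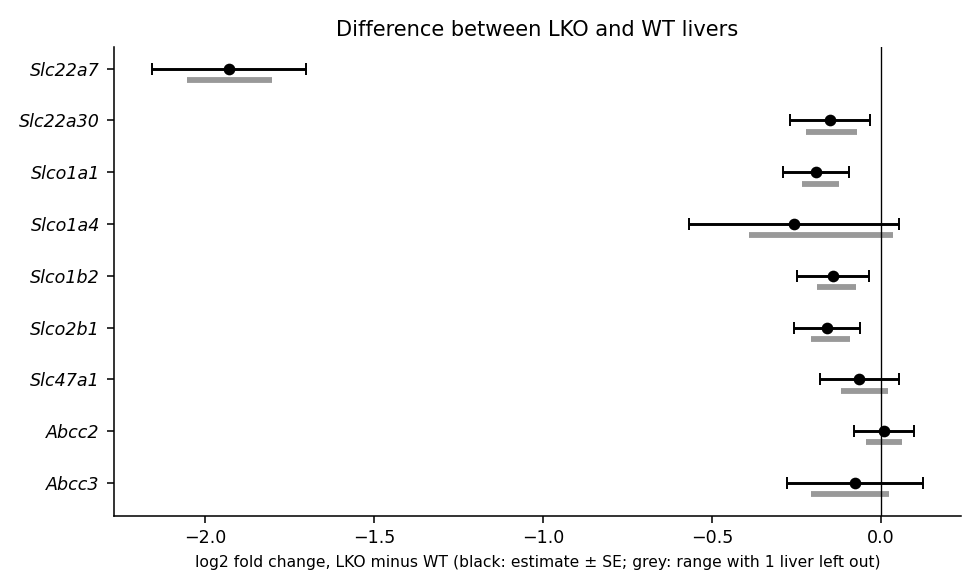
Log2 fold change between LKO and WT livers for each gene. Black points with bars give the edgeR estimate ± SE, and grey bars give the range of the estimate when 1 liver at a time is left out. The grey bar of Slc22a7 stays between -2.06 and -1.80, whereas the points and grey bars of the other genes lie within 0.4 of 0. The SE bar of Slco1a4 reaches further below 0.

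Slc22a30, a rodent member of the organic anion branch of SLC22, lies at chr19:8335371-8405111 on the minus strand. In WT livers it ranged from 97.9 to 165 CPM with a median of 131 CPM. In LKO livers it ranged from 98.9 to 134 CPM with a median of 118 CPM. The LKO values all fell inside the WT range, and the log2 fold change was -0.15 (SE 0.12). The gene stands in a tandem array of related genes, and its coding sequence of 1659 bases is 98.8% identical to that of its neighbour Slc22a28, with 20 positions that differ. The first 431 coding bases of both are the same base for base. The 90-base stretch that separates them best is shown, from coding base 640 to 729, with the 4 positions that differ in capitals.
Slc22a30: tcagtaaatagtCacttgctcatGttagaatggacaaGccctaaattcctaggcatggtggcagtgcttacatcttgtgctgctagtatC
Slc22a28: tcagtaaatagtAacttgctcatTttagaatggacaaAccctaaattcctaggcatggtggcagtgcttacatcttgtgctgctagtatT
Of the 50-base words in the transcripts of Slc22a30, 31% also occurred in Slc22a28 and 34.1% in at least 1 of its relatives. How reads that fit both genes were assigned is not stated, so the values of this pair are uncertain. Slc22a28 was counted at 6.03 to 13.7 CPM in WT and 5.81 to 13 CPM in LKO livers, with a log2 fold change of -0.30 (SE 0.20, edgeR adjusted p = 0.604).

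The 4 organic anion transporting polypeptides of the list take up bile acids, bilirubin, steroid conjugates and many drugs from sinusoidal blood. Slco1b2, the mouse counterpart of the human OATP1B carriers, had 1088 to 1450 CPM in WT livers with a median of 1308 CPM, and 880 to 1350 CPM in LKO livers with a median of 1196 CPM. The ranges overlapped and LKO liver 1 was the lowest of all (log2 fold change -0.14, SE 0.11). Slco1a1 had 637 to 816 CPM in WT livers with a median of 715 CPM, and 484 to 730 CPM in LKO livers with a median of 653 CPM. Here 3 LKO livers were below the lowest WT liver and the other 3 were within the WT range (log2 fold change -0.19, SE 0.10). Slco2b1, which also carries steroid sulfates, had 187 to 248 CPM in WT and 139 to 214 CPM in LKO livers, with medians of 201 and 189 CPM. LKO liver 1 had 139 CPM, and the other 5 LKO livers had 187 CPM or more (log2 fold change -0.16, SE 0.10).

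Slco1a4, the OATP gene that predominates in female liver, had the widest relative spread of the list among WT livers. It ranged from 18.4 to 68.5 CPM in WT livers with a median of 32.4 CPM, and from 13.2 to 42.5 CPM in LKO livers with a median of 28.9 CPM. The highest value came from WT liver 3 and the lowest from LKO liver 1. The coefficient of variation between livers was 51.9% in WT and 35.3% in LKO livers, while that of Slco1a1 was 8.89% and 14.3%. The log2 fold change of Slco1a4 was -0.26 (SE 0.31), and it became 0.03 without WT liver 3. Slco1a1 and Slco1a4 are neighbours with coding sequences of 2013 bases each that are 86.6% identical. Their first 90 coding bases are shown because the pair is the closest among the OATP genes of the list, with the 18 positions that differ in capitals.
Slco1a1: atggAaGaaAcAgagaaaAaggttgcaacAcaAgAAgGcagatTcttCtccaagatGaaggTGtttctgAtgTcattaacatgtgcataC
Slco1a4: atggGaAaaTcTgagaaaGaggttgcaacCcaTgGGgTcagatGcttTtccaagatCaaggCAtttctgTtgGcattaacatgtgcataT
Only 1.64% of the 50-base words of Slco1a1 and 1.61% of those of Slco1a4 occurred in any relative. Slco1b2 and Slco2b1 shared none.

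The efflux genes had log2 fold changes of -0.08 to 0.01, an order that rested on single livers: without LKO liver 5 that of Abcc3 was -0.21. Abcc2 (MRP2), which exports bilirubin glucuronides and glutathione conjugates into bile, had 685 to 996 CPM in WT livers with a median of 857 CPM. In LKO livers it had 789 to 901 CPM with a median of 861 CPM. All LKO values lay inside the WT range, and the log2 fold change was 0.01 (SE 0.09). Slc47a1 (MATE1), which exchanges organic cations for protons at the canalicular membrane, had 106 to 170 CPM in WT and 102 to 143 CPM in LKO livers, with medians of 128 and 129 CPM. Its log2 fold change was -0.06 (SE 0.12). Abcc3 (MRP3), which returns glucuronides to the blood, had 148 to 273 CPM in WT and 132 to 294 CPM in LKO livers, with medians of 224 and 211 CPM. The LKO range of Abcc3 enclosed the WT range, and its log2 fold change was -0.08 (SE 0.20).

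Levels were compared between genes on the FPKM scale, that is, CPM divided by the kilobases covered by the exons of the gene. In WT livers Slco1b2 was the most abundant at 261 ± 32.5 FPKM, followed by Slco1a1 at 138 ± 12.2 FPKM and Abcc2 at 99.2 ± 14.0 FPKM (SD, n = 6 each). Slco1b2 exceeded Slco1a1 in 12 of 12 livers, and Slco1a1 exceeded Abcc2 in 11 of 12. Next stood Slc22a30 at 39.0 ± 7.20, Slc47a1 at 38.9 ± 7.01, Abcc3 at 38.0 ± 9.05 and Slco2b1 at 34.7 ± 3.95 FPKM. These 4 genes could not be put in order, since each neighbour exceeded the next in only 6 to 8 of 12 livers. Slc22a7 followed at 27.2 ± 5.96 FPKM in WT livers, a range of 17.8 to 33.0 FPKM that overlapped the 31.3 to 41.6 FPKM of Slco2b1. In LKO livers Slc22a7 was at 7.13 ± 2.64 FPKM, apart from Slco2b1 at 31.0 ± 4.13 FPKM. Slco1a4 was the lowest at 5.56 ± 2.88 FPKM in WT and 4.65 ± 1.64 FPKM in LKO livers, and Slc22a7 exceeded it in 6 of 6 WT livers and 5 of 6 LKO livers. Of the FPKM of the 9 genes added up, Slc22a7 supplied 4.03% in WT and 1.20% in LKO livers, while Slco1b2 supplied 38.2% and 38.7%.

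**Figure D3:**
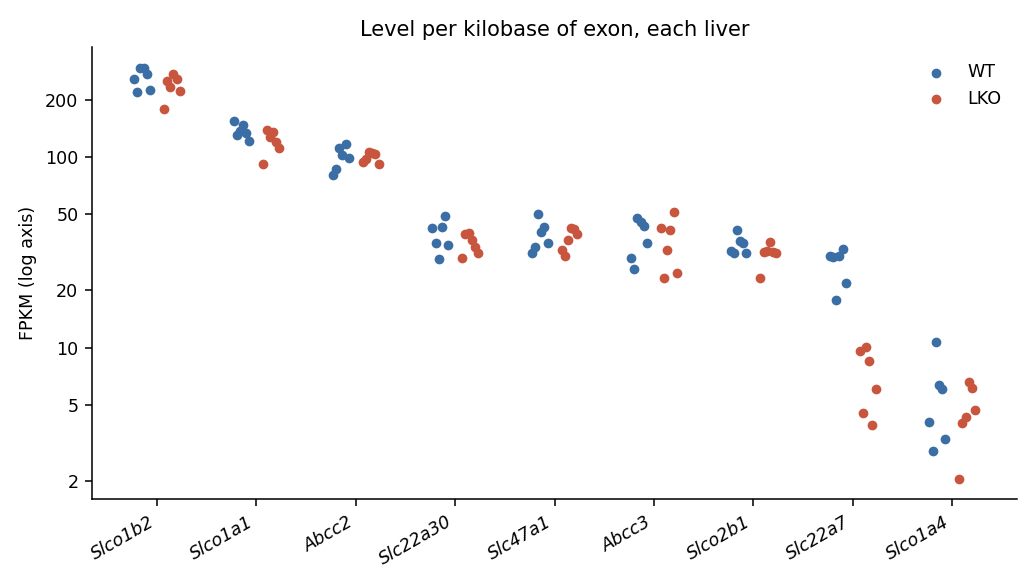
FPKM of each gene in each liver on a log axis, ordered by the WT mean, with WT in blue and LKO in red. Slco1b2, Slco1a1 and Abcc2 stand above the rest, Slc22a30, Slc47a1, Abcc3 and Slco2b1 share one level between 34.7 and 39.0 FPKM in WT means, and Slc22a7 is the gene whose colours separate.

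The genes also varied from liver to liver within a genotype, a measure on which the list was not drawn up. Log2 CPM was centred on the mean of each genotype, and Pearson's r over 12 livers was tested by an exact permutation of livers within genotypes for all 36 pairs (two-sided). Of these, 5 pairs passed at an adjusted p under 0.05, of which 4 joined OATP genes to each other and 1 joined Slco1a4 to Slc47a1. The share of pairs among other liver genes that would pass was not computed, so this count is not read as particular to the transporter genes. Slco1b2 and Slco2b1 had r = 0.91 (exact permutation p = 3.67e-05, adjusted p = 0.00132) and rho = 0.89 (permutation p = 0.0011, adjusted p = 0.0197). Slco1a4 and Slco2b1 had r = 0.94 (exact permutation p = 0.000106, adjusted p = 0.00191) and rho = 0.83 (permutation p = 0.00385, adjusted p = 0.0346). Slco1a4 and Slco1b2 had r = 0.91 (exact permutation p = 0.000189, adjusted p = 0.00227) and rho = 0.89 (permutation p = 0.0011, adjusted p = 0.0197). Without the 2 livers farthest from the median of the first gene these coefficients were 0.81, 0.89 and 0.89. The left-out livers were LKO 1 and WT 2 for the first pair and LKO 1 and WT 3 for the others.

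Slco1a4 also varied with Slc47a1 (r = 0.84, exact permutation p = 0.00183, adjusted p = 0.0164, rho = 0.86 with permutation p = 0.00222 and adjusted p = 0.0267), with r = 0.80 without the 2 farthest livers. Slco1a1 and Slco1b2 passed on r alone (r = 0.80, exact permutation p = 0.00571, adjusted p = 0.0411, rho = 0.63 with permutation p = 0.0482 and adjusted p = 0.145), and their r was 0.65 without LKO livers 1 and 2. Slc22a7 was in none of these pairs: its 8 coefficients ran from -0.38 with Slco1a4 to 0.35 with Slc22a30, and the smallest adjusted p by exact permutation was 0.424. Livers at the ends of the ranges recurred. LKO liver 1 was the lowest of its group in 5 of 9 genes, and WT liver 3 was the highest of its group in 5. Counts of one library share its normalisation, and the part of this in the coefficients was not tested.

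**Figure D4:**
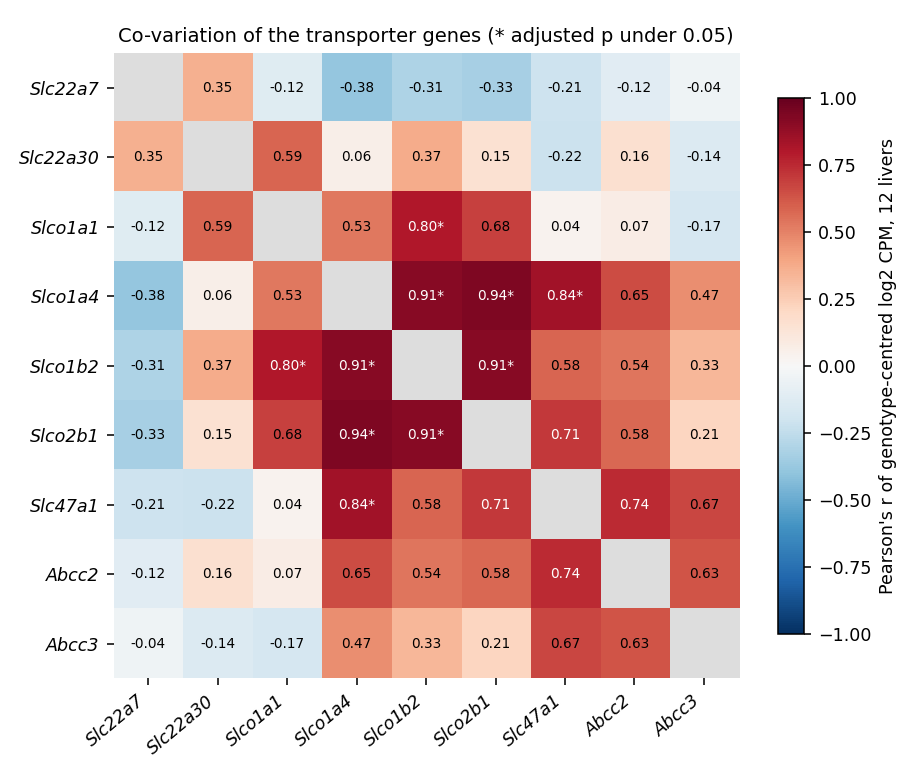
Pearson's r between the genotype-centred log2 CPM of each pair of genes over 12 livers, red for positive and blue for negative values, with a star where the permutation p adjusted over 36 pairs is under 0.05. The starred pairs, from 0.80 to 0.94, all include an OATP gene, and the row of Slc22a7 holds values from -0.38 to 0.35.

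Since 3 of the OATP genes that varied together lie within 1 Mb of each other on chromosome 6, their promoters are shown from RefSeq, build GRCm38.p6, 5′ to 3′ on the strand of the gene. Each window of 300 bases reaches from before to just after the start site. The table held a promoter for 6 of the 9 genes, and Slc22a7, Slc47a1 and Abcc3 were not among them. Capitals mark matches to the HNF1 element GTTAAT, the HNF4 core CAAAGTCC and the STAT5 element TTCNNNGAA on either strand.
Slco1b2 (chr6:141629268-141629567, plus strand): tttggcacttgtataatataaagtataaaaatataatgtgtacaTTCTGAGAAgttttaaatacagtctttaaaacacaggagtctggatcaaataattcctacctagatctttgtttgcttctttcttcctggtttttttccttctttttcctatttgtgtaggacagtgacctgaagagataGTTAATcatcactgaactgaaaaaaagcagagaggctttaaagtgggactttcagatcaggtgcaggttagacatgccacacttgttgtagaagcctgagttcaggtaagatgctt
Slco1a4 (chr6:141856171-141856470, minus strand): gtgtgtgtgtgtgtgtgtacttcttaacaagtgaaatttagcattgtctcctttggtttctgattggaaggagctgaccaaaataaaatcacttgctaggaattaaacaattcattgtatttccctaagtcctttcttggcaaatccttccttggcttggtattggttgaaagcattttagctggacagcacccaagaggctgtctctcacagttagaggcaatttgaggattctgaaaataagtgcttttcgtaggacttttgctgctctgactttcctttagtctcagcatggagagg
Slco1a1 (chr6:141946913-141947212, minus strand): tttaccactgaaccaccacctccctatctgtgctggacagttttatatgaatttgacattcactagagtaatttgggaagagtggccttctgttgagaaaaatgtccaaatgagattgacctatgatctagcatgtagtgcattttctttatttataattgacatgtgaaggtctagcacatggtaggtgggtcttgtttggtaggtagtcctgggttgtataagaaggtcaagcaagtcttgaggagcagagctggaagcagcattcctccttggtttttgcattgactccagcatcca
Slco1b2 held GTTAAT with its first base at position -66 from the start site and TTCNNNGAA at position -206. Slco2b1 has 3 promoters in the table, not shown here. Number 2 held TTCNNNGAA at position 13 and number 3 held it at position -133. GTTAAT was held by 7.1% of the 32851 promoters in the table, CAAAGTCC by 1.42% and TTCNNNGAA by 8.3%. Slco1a1 held the nuclear receptor element AGGTCA at positions -134 and -24, Slco1b2 held it at position -81 and Abcc2 at position -49, as did 16.3% of all promoters. No letters of these 4 motifs were matched in the windows of Slco1a4 and Slc22a30. Abcc2 held the NRF2 core TGACNNNGC at position -98, which 12.4% of all promoters held. Matches to TATAAA (13.6% of promoters) were found for Slco1a1 and Slco1b2, matches to CCAAT (37.4%) for Slco1a4, Slco2b1 and Abcc2, a match to TGTTCT (19% of promoters) for Slco2b1, and none to CACGTG (7.15%). Where motifs share letters the matches were counted separately.

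The tandem neighbours of the OATP and SLC22 genes were mostly silent. Within 1 Mb of Slco1a1 the annotation holds 7 genes of these families, of which 4 passed the filter: Slco1b2, Slco1a4, Slco1a1 and Abcc9. Slco1c1, Slco1a6 and Slco1a5 had at most 6, 4 and 1 reads in any liver. Within 1 Mb of Slc22a30 there are 8, of which Slc22a30, Slc22a28, Slc22a27 and Slc22a26 passed. Slc22a27 and Slc22a26 had means of 0.355 and 0.207 CPM in WT livers, and Slc22a19, Slc22a29, Slc22a8 and Slc22a6 did not pass the filter. Slc22a6 and Slc22a8, the renal organic anion transporters OAT1 and OAT3, had at most 0 and 1 reads in any liver, and none of the 5 kidney tubule marker genes passed the filter.

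The genes beside Slc22a7 on chromosome 17 were read to see whether the region moved with it. On the lower side, Zfp318 had a log2 fold change of -0.05 (SE 0.10, edgeR adjusted p = 0.902) and Crip3 one of -0.43 (SE 0.27, adjusted p = 0.572). On the upper side, the processed pseudogene Gm5093 had -1.15 (SE 0.41, edgeR adjusted p = 0.270) at a WT mean of only 0.510 CPM. Ttbk1, which starts at 46442448, averaged 6.67 ± 1.33 CPM in WT and 3.93 ± 1.59 CPM in LKO livers (SD, n = 6 each), with a log2 fold change of -0.76 (SE 0.22). None of these neighbours passed edgeR's test, Ttbk1 having an adjusted p of 0.172. Ttbk1 passed with DESeq2 (adjusted p = 0.0430) and without LKO liver 6 (edgeR adjusted p = 0.0343).

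Within genotypes, the genes whose levels followed Slc22a7 best were not transporters. Among 12774 genes of at least 1 CPM on average, the highest Pearson coefficients with the genotype-centred log2 CPM of Slc22a7 over 12 livers were those of Tab1 (0.95), Mocos (0.90), Amz2 (0.88), Nelfb (0.87) and Prkrip1 (0.86). The lowest were those of Mrpl49 (-0.87), A430046D13Rik (-0.87), Gnptab (-0.84), Smarcd3 (-0.83) and Lamb3 (-0.83). In all, 17 genes had a coefficient over 0.8 and 11 one under -0.8. These are the ends of a ranking of many genes over 12 livers that share depth and normalisation, and no p-value is attached to them. Tab1 averaged 4.78 ± 0.63 CPM in WT and 4.76 ± 1.03 CPM in LKO livers, so its own mean did not follow that of Slc22a7 between the genotypes.

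Slc22a7 was also set beside genes that are sex-biased in mouse liver or regulated by PPARα, since WT liver 3 and LKO liver 5, the lowest of their groups in Slc22a7, stood out in several of them. Acot3, a peroxisomal acyl-CoA thioesterase, had 21.0 CPM in WT liver 3 and 0.691 to 3.41 CPM in the other WT livers. It had 36.4 CPM in LKO liver 5 and 1.5 to 8.65 CPM in the other LKO livers. All 12 male-biased genes had a positive coefficient with Slc22a7 within genotypes, from 0.28 to 0.64 with a median of 0.40, and all 10 PPARα targets had a negative one, from -0.71 to -0.07 with a median of -0.41. Without WT liver 3 and LKO liver 5, a choice made after the values were seen, 4 of 12 male-biased genes had a positive coefficient with a median of -0.15, and the median of the PPARα targets was -0.01. The medians of both lists thus depended on these 2 livers, though not every coefficient did: those of Cyp4a12a and Cyp4a12b went from 0.36 and 0.38 to 0.49 and 0.52, and that of Cpt1a from -0.46 to -0.58. The 2 female-biased genes of at least 1 CPM, Acot3 and Cyp17a1, had coefficients of -0.70 and -0.47 with all livers and of -0.33 and -0.40 without these 2. For the difference between the genotypes, without WT liver 3 and LKO livers 1 and 5 the log2 fold change of Slc22a7 was -1.98.

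Beyond the list, the table held 43 further genes of the SLC22, SLCO, SLC47 and ABCC families. Of these, 22 passed the filter, 11 with a fold change below 0 and 11 above. The other 21 had at most 10 reads in any liver, and 7 of them had no read at all. None of the 22 passed edgeR's test, where 0.428% of all genes did. Of them 4 had an unadjusted p under 0.05, as did 11.7% of all genes tested, none passed with limma voom and 1 passed with DESeq2.

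The abundant genes among the 22 were close to level. Slc22a18 had a log2 fold change of -0.03 and Abcc6 (MRP6), which mediates release of ATP from hepatocytes, one of -0.17 (edgeR adjusted p = 0.934 and 0.592). Slc22a23 had -0.20 (SE 0.08, edgeR adjusted p = 0.312) at 134 ± 16.2 CPM in WT and 117 ± 5.35 CPM in LKO livers. The carnitine carrier gene Slc22a5 had a log2 fold change of 0.11, the prostaglandin carrier gene Slco2a1 -0.14, Abcc10 -0.05 and Slc22a4 -0.16. Abcc9, a regulatory subunit of potassium channels, had a log2 fold change of 0.30 (SE 0.12, edgeR adjusted p = 0.362).

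Slco4a1, a carrier of thyroid hormones, had the greatest difference among the 22, and it is named here after its value was seen. It had 0.0524 to 0.254 CPM in WT livers and 0.258 to 0.605 CPM in LKO livers, which did not overlap. Its log2 fold change was 1.78 (SE 0.39, edgeR adjusted p = 0.0687), and it passed with DESeq2 (adjusted p = 0.0317) and without WT liver 3 (edgeR adjusted p = 0.0415). At a mean of 0.0647 FPKM it was among the rarest transcripts of these families.

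**Figure D5:**
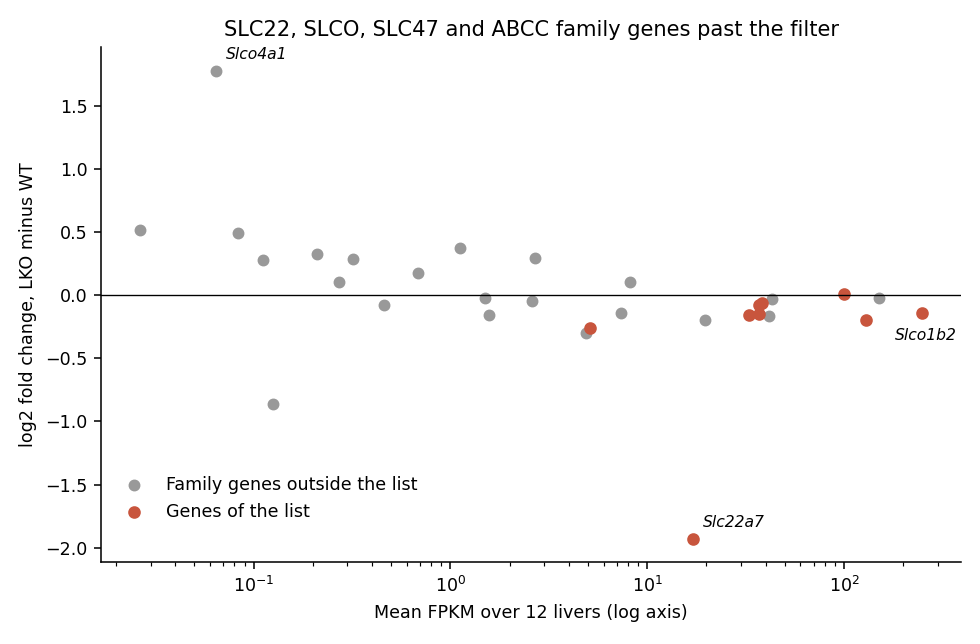
Log2 fold change between LKO and WT livers against the mean FPKM on a log axis for the family genes past the filter, with the 9 genes of the list in red and 22 others in grey. Slc22a7 at -1.93 and Slco4a1 at 1.78 lie apart from the rest, and the abundant genes on the right lie near 0.

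Other carriers of the hepatocyte were taken from a list of 24 transporter genes, all tested, of which 15 had a fold change below 0 and 9 above. Only Slc17a3, a phosphate transporter family member that carries urate and other organic anions, passed edgeR's test. It had 73.4 to 82.5 CPM in WT livers and 53.7 to 69.2 CPM in LKO livers, without overlap, and a log2 fold change of -0.37 (SE 0.07, edgeR adjusted p = 0.0335). The adjusted p of Slc17a3 was 0.0873, 0.0565, 0.0676 and 0.1 without WT livers 1, 2, 4 and 5, 0.0516, 0.0859, 0.0717 and 0.0831 without LKO livers 1, 3, 4 and 5, and 0.142 without WT liver 3 and LKO livers 1 and 5 together. The bile acid carriers, named after their values were seen, did not pass: Slc10a1 (NTCP), the sinusoidal uptake carrier, had a log2 fold change of 0.09 (SE 0.15), and Abcb11 (BSEP), the canalicular export pump, had -0.21 (SE 0.09, edgeR adjusted p = 0.380).

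Of the scaffold proteins that hold these carriers at the membrane, 0 of 6 genes were called by edgeR, limma voom or DESeq2 and none had an unadjusted p under 0.05. Msn, which encodes moesin, had a log2 fold change of 0.27 (edgeR adjusted p = 0.474). Rdx encodes radixin, which anchors MRP2 at the canalicular membrane, and had one of -0.19 (edgeR adjusted p = 0.494). Among 31 transcriptional regulators of hepatic transporters, 21 had a fold change below 0 and 6 had an unadjusted p under 0.05, all of them lower. None was called by any of the 3 tools. Foxa3 had a log2 fold change of -0.40 (SE 0.13, edgeR adjusted p = 0.214) and Rxra, the common partner of the nuclear receptors, one of -0.20 (SE 0.07, edgeR adjusted p = 0.247).

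Target genes of the receptors that govern drug transport were counted in the same fit. Of 12 tested targets of CAR and PXR, 0 were called by edgeR, limma voom or DESeq2, 2 had an unadjusted p under 0.05, and Cyp2c29 came first with a log2 fold change of -0.27 (edgeR adjusted p = 0.269). Of 4 tested AHR targets 0 were called by these tools and 1 had an unadjusted p under 0.05, Cyp1a2 with a log2 fold change of -0.32 (edgeR adjusted p = 0.223). Of 7 FXR targets 6 had a fold change below 0 and 2 an unadjusted p under 0.05; edgeR and limma voom called none and DESeq2 called 1, Fgfr4, with a log2 fold change of -0.27 in edgeR (adjusted p = 0.132). Of 10 PPARα targets 8 had a fold change above 0, 4 had an unadjusted p under 0.05 and none was called by the 3 tools, the pantetheinase gene Vnn1 coming first at 1.12 (SE 0.32, edgeR adjusted p = 0.168).

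Of 15 NRF2 targets edgeR called 2, both higher in LKO livers, where 0.274% of all tested genes were called higher; 5 of the 15 had an unadjusted p under 0.05. G6pdx, the entry enzyme of the pentose phosphate pathway, had 3.46 to 18.9 CPM in WT and 42.0 to 65.9 CPM in LKO livers, with a log2 fold change of 2.62 (SE 0.29, edgeR adjusted p = 0.000499). Gstm1, a glutathione transferase, had 668 to 813 CPM in WT and 911 to 1071 CPM in LKO livers, with a log2 fold change of 0.44 (SE 0.07, edgeR adjusted p = 0.00725). Neither pair of ranges overlapped. Of the 12 male-biased genes 9 had a fold change below 0, and 6 lower and 2 higher genes had an unadjusted p under 0.05. The 2 called by edgeR and by limma voom were the fatty acid hydroxylases Cyp4a12a and Cyp4a12b, which rose with log2 fold changes of 0.59 and 0.75 (edgeR adjusted p = 0.00999 and 0.0121). DESeq2 called 4, adding Mup20 and Selenbp2, which had edgeR log2 fold changes of -0.81 and -1.71 (adjusted p = 0.146 and 0.0893). Of 6 tested female-biased genes edgeR called none and limma voom and DESeq2 each called 1, Cyp17a1, with a log2 fold change of 1.10 (SE 0.27, edgeR adjusted p = 0.0921), and 2 had an unadjusted p under 0.05.

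Markers of the cell types in liver were read beside the transporters. Of 8 hepatocyte markers 7 had a fold change below 0, with a median log2 fold change of -0.11, and their summed level was 99876 to 120043 CPM in WT and 89499 to 104010 CPM in LKO livers. Of the 8 Kupffer cell markers all had a fold change above 0, with a median log2 fold change of 0.41 and a summed level of 112 to 151 CPM in WT and 142 to 243 CPM in LKO livers. Stellate cell markers were above 0 in 8 of 8 genes, with a median of 0.20, and sinusoidal endothelial markers in 7 of 8, with a median of 0.05. None of these genes was called by edgeR, while DESeq2 called 3 Kupffer cell markers and the endothelial marker Lyve1. Of these lists 2, 7, 1 and 1 genes, in the same order, had an unadjusted p under 0.05. Of 9 pericentral and 7 periportal hepatocyte markers 5 each had a fold change below 0, 3 and 1 had an unadjusted p under 0.05, and edgeR and limma voom called none, while DESeq2 called the periportal marker Cyp2f2. None of 7 cholangiocyte and 3 tested T cell markers was called by the 3 tools (1 and 0 had an unadjusted p under 0.05), and of 5 B cell markers 1 was, Ighm, with a log2 fold change of -1.78 (SE 0.12, edgeR adjusted p = 4.06e-06). The part of cell composition in the transporter values was not tested. The median log2 fold change was -0.11 over the 8 hepatocyte markers and -0.15 over the 8 transporter genes other than Slc22a7, and no cause is read from these values.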

How the data were processed

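Liver poly(A) RNA of 6 WT and 6 LKO mice was sequenced, and 1 table of read counts per gene was deposited. Per the study's methods, the authors trimmed reads with Trimmomatic 0.36, checked them with FastQC 0.11.15, and aligned them with HISAT2 2.1.0, with gene counts made by HTSeq 0.6.1 against Ensembl 93 (GRCm38). The strand and overlap settings of the counting are not given in the sources used here, so reads of overlapping or near-identical genes may be split or lost. The deposited values are whole, unnormalised counts; every one of the 12 columns was matched to a library, and 0 were left over. Groups came from the genotype in the labels.

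Symbols, coordinates and lengths came from GENCODE M21 (GRCm38), in which 54165 of 54232 identifiers were found; Marchf6 is March6 there. A gene was kept where 6 or more livers each had over 2 reads. TMM factors, the quasi-likelihood test of LKO against WT without covariates and Benjamini-Hochberg adjustment over 17509 genes were from edgeR 4.0.16 in R 4.3.3. SE is the fold change divided by the root of the F statistic. CPM are TMM-scaled, and FPKM divides them by the exon union in kilobases. The prior count for log2 CPM was 0.5. Alternatives were limma voom (limma 3.58.1), which the study used, DESeq2 1.42.0, other scalings, filters, a replicate block and leaving out each liver. On simulated counts for LKO against WT over 17194 genes the test recovered 89% of genes changed by a log2 fold of 1. It recovered 100% of those changed by 2, with 4.55% false calls. This was 1 simulated set, drawn with the spread that edgeR estimated from these livers. Its changed genes all averaged over 1 CPM, so recovery of rarer genes was not measured.

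The genes, lists and tests were chosen with earlier results of these data known. Named besides the 9 are family genes that passed the test or were the 10 most abundant, from each other list the genes that passed or else the 2 with the lowest adjusted p, the 5 genes most and least like Slc22a7, and chromosomal neighbours. Of these, 2 genes are not reported here. The labels do not say that library numbers pair mice. The p-values for LKO against WT weigh the difference between the groups against the spread between these livers. Low counts limit the precision of the rare genes.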

Additional observations from a re-analysis of the deposited data

Results flagged for a closer look

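A liver was marked where its gap to the nearest of the others, divided by the range of its group of 6, was above Dixon's critical value. This was so in 8 of 134 groups searched (67 named genes in 2 genotypes), where chance gives about 1 in 20, or 6.7. Among the transporters, Slco2b1 was low in LKO liver 1 (139 CPM against 187 to 214 CPM in the other LKO livers, ratio 0.637). Slc22a18 was high in LKO liver 4 (90.3 against 64.6 to 72.9 CPM, ratio 0.679), and Abcc10 was low in LKO liver 1 (14.1 against 17.4 to 19.2 CPM, ratio 0.644). Slc22a7 had no liver that far from its group.

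Among the other genes, Pdk4 was high in LKO liver 1 (25.0 against 4.49 to 9.25 CPM, ratio 0.768). Acot3 was high in WT liver 3 (21.0 against 0.691 to 3.41 CPM, ratio 0.866) and in LKO liver 5 (36.4 against 1.5 to 8.65 CPM, ratio 0.795). Cyp17a1 was high in WT liver 3 (68 against 18.4 to 35.1 CPM, ratio 0.664), and Clec4f was low in WT liver 1 (36.5 against 45.3 to 48.2 CPM, ratio 0.753).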

How the results depend on the processing

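The log2 fold change of Slc22a7 was below 0 in 22 of 22 alternatives, from -2.06 (without LKO liver 3) to -1.80 (without LKO liver 5) when livers were left out and from -1.99 to -1.91 otherwise. The count of genes called, 75, was 114 without a filter, 351 with DESeq2 (51.6% of them higher in LKO livers, against 64%), 38 without WT liver 5 and 132 without WT liver 3, with genes lower at 12 without WT liver 5, 49 without WT liver 3 and 170 with DESeq2. Family genes called outside the list were 0, and 1 (Slco4a1) with DESeq2 and without WT liver 3, so leaving out livers gave 0 to 1. The cause was not tested. The fold changes of Slco1a4, Slc47a1, Abcc3 and Abcc2 changed sign when livers were left out. Lengths of the longest transcript raised the WT FPKM of Slc22a30 to 50.5, Slco1a1 to 186, Slco1a4 to 9.33, Slco1b2 to 388 and Slco2b1 to 47.2. No label says that library numbers pair the livers, and the data did not settle it: same-numbered WT and LKO livers correlated from -0.065 to 0.135, with 4 of 6 pairs above 0.1. A replicate block gave 97 calls and -1.97 for Slc22a7, and Slc17a3 then had an adjusted p of 0.0546. Without WT liver 3 and LKO livers 1 and 5, chosen after seeing the data, 92 genes were called.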
